A study of Homo sapiens with 14 samples.

Results

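Cytokinesis is the last step of cell division, in which a dividing cell is cut into its daughters. The 8 genes described here, PRC1, RACGAP1, ECT2, ARHGAP11A, ANLN, CIT, CEP55 and SHCBP1, code for proteins of the spindle midzone, the contractile ring and the midbody. They were chosen by name, for these roles, with earlier results of these data known. Their names were matched to the gene symbols of both count tables. All 8 were found among the 26732 genes listed in both tables, and all 8 were among the 12625 genes with enough counts to be tested in both cell lines. Each row of the tables is a gene symbol with the reads counted on it, so isoforms were not told apart.

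RNA was sequenced from 2 human lung adenocarcinoma lines, A549 grown in DMEM and H1792 grown in RPMI 1640, collected 48 h after 0.1 µM AMG900 or its solvent DMSO was added. AMG900 is a small molecule that inhibits the aurora kinases A, B and C. There were 4 DMSO and 4 AMG900 libraries of A549 and 3 and 3 of H1792, although the protocol in the labels gives 3 dishes per treatment for both lines. The replicates are dishes of 1 line each, so the p-values measure the spread between dishes, and each line, its medium and its count table cannot be told apart from one another. Total counts ranged from 4254644 to 18962883 in A549 and from 42810734 to 79984064 in H1792, and A549 DMSO replicate 1 was the smallest library. Levels are given on the counts-per-million scale (CPM). The epithelial keratins KRT7, KRT8 and KRT18 were abundant in both lines, with DMSO means of 1626 to 3880 CPM in A549 and 261 to 979 CPM in H1792. Other epithelial markers were nearly absent, EPCAM from A549 (DMSO mean 0.301 CPM) and CDH1 from H1792 (0.681 CPM). With AMG900, all 5 epithelial markers tested in A549 were higher, where 17.2% of all genes tested were. In H1792 1 of 6, KRT19, was higher, where 16.2% of all genes tested were. Of the 11 markers of leukocytes, endothelium, red cells and stroma, the leukocyte gene PTPRC and the T cell gene CD3E were at or near 0 CPM in both lines. In H1792, 8 of the 11 were tested, with 4 higher and 1 lower with AMG900, where 16.2% and 18.8% of all genes tested were. The higher ones were CD68, the endothelial genes PECAM1 (means of 4.45 and 7.51 CPM) and CDH5 (0.0799 and 0.390 CPM) and the globin gene HBA1 (0.242 and 2.33 CPM), and the stromal gene DCN was lower (29.8 and 21.8 CPM). PDGFRB, also stromal, was at 10.8 and 13.2 CPM and was not called. VWF, also endothelial, had lower means with AMG900 (3.74 and 0.562 CPM) and was not called. In A549 only CD68 had enough counts to be tested, and it was higher. The summed level of that list was 59.0 to 85.9 CPM with DMSO and 150 to 172 CPM with AMG900 in A549, and 142 to 172 CPM and 213 to 238 CPM in H1792. Most of that sum was CD68, a lysosomal protein that many cell types make, at 73.5 and 158 CPM in A549 and 104 and 179 CPM in H1792, and the part of these markers in the results was not tested.

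When sister chromatids have separated, PRC1 bundles the antiparallel microtubules between them into the midzone. There, RACGAP1 and the kinesin KIF23 form centralspindlin, which brings the exchange factor ECT2 to the cell equator to activate the small GTPase RhoA. Active RhoA drives the actomyosin ring, which anillin (ANLN) scaffolds and citron kinase (CIT) links to the midbody, and CEP55 then recruits the ESCRT machinery that severs the last bridge. Aurora B, as the kinase of the chromosomal passenger complex, phosphorylates centralspindlin and other midzone proteins, and its inhibition blocks cytokinesis. Genes of this step are usually transcribed in late S phase, G2 and mitosis, through promoter elements such as the cell cycle genes homology region (CHR) and the CCAAT box.

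In A549 the genes moved together, all to below 15% of their DMSO level. The DNA at their start sites was read from RefSeq promoter sequences on GRCh38.p14, which cover 250 bases before to 50 after each start. Entries were matched for 7 of the 8 genes (all but RACGAP1), with 2 for ECT2. The CHR letters TTTGAA or TTTAAA, searched on both strands, were in 7 of these 8 promoters, against 24% of all 35116 promoters of the same length. By gene they were in 6 of the 7, as the 2 ECT2 entries overlap and share a match. The letters CCAAT, also searched on both strands, were in 5 of the 8, against 34.6% of all promoters, and the same 5 genes (PRC1, CEP55, CIT, ECT2 and SHCBP1) held both, against 9.27%. All CHR matches in these genes were of the form TTTGAA (15.2% of all promoters). The E2F letters TTTCGCGC, TTTGGCGC and GCGGGAAA were in 0 of the 8 and in 2.74% of all promoters. No match of one kind overlapped a match of another. The stretches from 120 bases before to 30 after the start are shown for the genes with a CHR match there, 5′ to 3′ on the gene's strand, with TTTGAA or its reverse complement TTCAAA and CCAAT or its reverse complement ATTGG in capitals. They lie at chr15:90994506-90994655 (minus strand) for PRC1, chr3:172750606-172750755 (plus) for ECT2, chr7:36389742-36389891 (plus) for ANLN, chr12:119877291-119877440 (minus) for CIT, chr10:93496492-93496641 (plus) for CEP55 and chr16:46621350-46621499 (minus) for SHCBP1.
PRC1 promoter: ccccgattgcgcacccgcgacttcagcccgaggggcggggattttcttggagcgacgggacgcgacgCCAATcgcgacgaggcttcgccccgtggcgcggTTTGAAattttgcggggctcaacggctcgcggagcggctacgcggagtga
ECT2 promoter: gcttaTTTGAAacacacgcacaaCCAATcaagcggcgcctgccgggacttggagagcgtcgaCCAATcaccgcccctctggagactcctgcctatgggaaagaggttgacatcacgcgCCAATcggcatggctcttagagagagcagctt
ANLN promoter: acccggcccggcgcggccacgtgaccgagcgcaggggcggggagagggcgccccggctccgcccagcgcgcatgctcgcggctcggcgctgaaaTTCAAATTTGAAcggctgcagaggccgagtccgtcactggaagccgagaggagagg
CIT promoter: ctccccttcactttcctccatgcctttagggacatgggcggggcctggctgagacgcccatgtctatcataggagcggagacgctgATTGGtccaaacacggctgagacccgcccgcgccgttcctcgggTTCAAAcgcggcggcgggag
CEP55 promoter: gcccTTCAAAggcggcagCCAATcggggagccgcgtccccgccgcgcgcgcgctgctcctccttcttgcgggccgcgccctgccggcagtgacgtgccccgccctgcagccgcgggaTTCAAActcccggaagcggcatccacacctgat
SHCBP1 promoter: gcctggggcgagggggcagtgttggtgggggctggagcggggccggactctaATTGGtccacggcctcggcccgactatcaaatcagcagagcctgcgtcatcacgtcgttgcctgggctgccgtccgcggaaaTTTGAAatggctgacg
In PRC1 the CHR letters were 20 to 15 bases before the start, with CCAAT at 53 to 49 bases before it. ANLN held the same CHR letters at 20 to 15 bases before the start, beside the reverse complement at 26 to 21. In the other 4 genes the letters lay elsewhere in the window, and ARHGAP11A had neither motif. These matches describe letters only, and no binding was measured. Whether the letters relate to the response to AMG900 in either line was not tested.

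AMG900 lowered all 8 cytokinesis genes in A549 cells. Their levels after 48 h were between 5.76% and 14.7% of the DMSO mean, and in every gene each of the 4 AMG900 libraries lay below each of the 4 DMSO libraries. All 8 passed the edgeR quasi-likelihood test at an FDR of 0.01 with Benjamini-Hochberg adjustment, where 17.8% of the 13174 genes tested were lower and 17.2% higher. Separated groups with AMG900 below DMSO occurred in 22% of all genes tested, and a significant decrease of at least 2-fold in 5.84%. The median log2 fold change of the 8 genes was -3.27, with a range from -4.12 in SHCBP1 to -2.75 in ARHGAP11A, and the median of all genes tested was -0.01. Fewer than 1% of the genes tested had a lower log2 fold change than any of the 8, with a range of 0.0683% to 0.964%. Summed over the 8 genes, 389 to 466 CPM (unscaled library totals) fell on them with DMSO and 39.9 to 45.4 with AMG900. In bulk RNA, fewer cells that make a transcript and less of it per cell cannot be told apart.

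**Figure D1:**
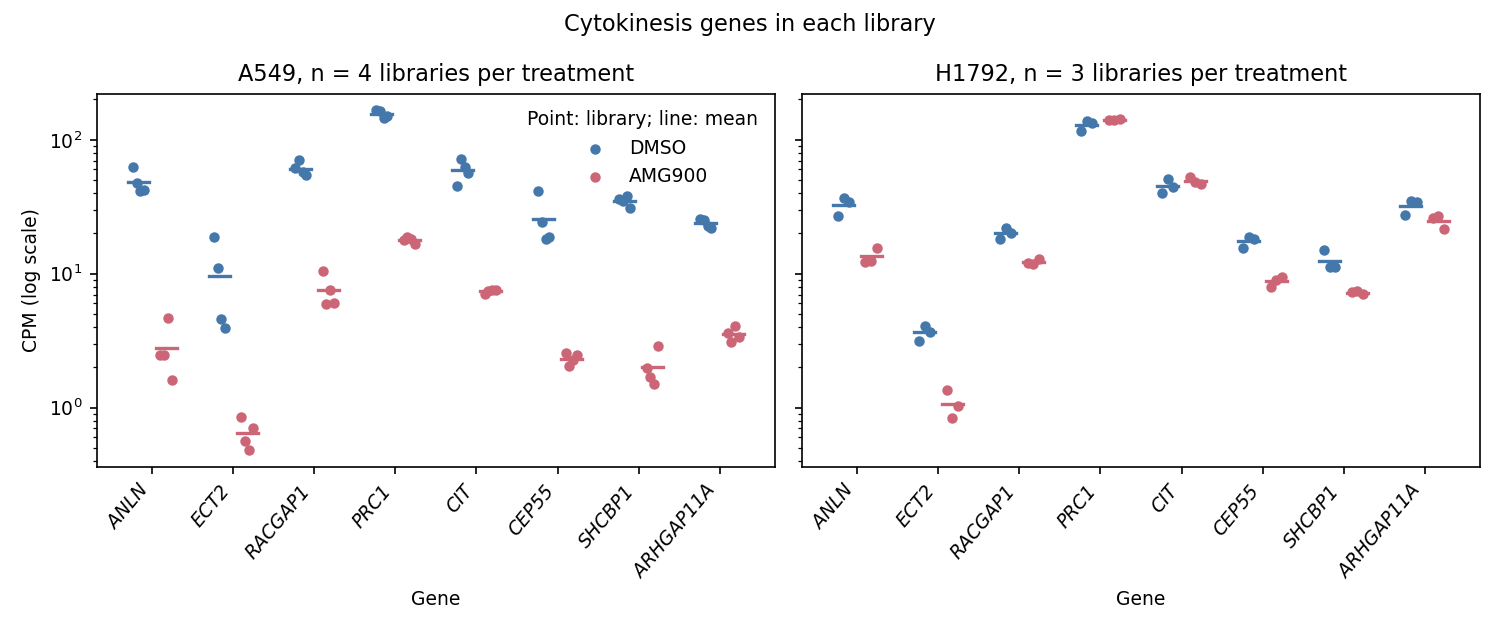
Level of each cytokinesis gene in CPM on a log axis, with 1 point per library (4 per treatment in A549, 3 in H1792), a line at the mean, DMSO in blue and AMG900 in red. In A549 every AMG900 point lies below every DMSO point of the same gene, while in H1792 the points of PRC1 and CIT lie close together, at 117 to 143 CPM and 40.2 to 52.7 CPM.

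The midzone organizer PRC1 (chr15:91509270-91538859, minus strand, GRCh37) was the most abundant of the genes. Its CPM in A549 was 165, 163, 145 and 149 in DMSO replicates 1 to 4 and 17.8, 18.8, 18.3 and 16.5 in the AMG900 replicates. The groups were far apart and the spread within each was small. The log2 fold change was -3.12 (SE 0.09, adjusted p = 3.48e-12, edgeR quasi-likelihood test), the most precise of the 8. PRC1 shares 1892 exonic bases with the antisense gene PRC1-AS1, and whether reads were counted by strand is not given in the sources used here.

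RACGAP1 (chr12:50370706-50426919, minus strand) is the GTPase-activating subunit of centralspindlin, and ECT2 (chr3:172468472-172539264, plus strand) is the exchange factor that it recruits. RACGAP1 had 61.1, 71.2, 57.3 and 54.1 CPM with DMSO and 10.5, 5.90, 7.55 and 6.08 CPM with AMG900, a log2 fold change of -3.04 (SE 0.16, adjusted p = 2.15e-09, edgeR). ECT2 was the scarcest of the genes, with 18.8, 11.1, 4.63 and 3.92 CPM with DMSO and 0.850, 0.562, 0.485 and 0.711 CPM with AMG900. Its DMSO libraries had the largest spread of the 8 genes relative to their mean, with replicate 1 the highest, and its AMG900 values rest on 8 to 11 reads per library. The log2 fold change of ECT2 was -3.80 with an SE of 0.50 (adjusted p = 2.46e-05, edgeR), and the decrease was called also without DMSO replicate 1. ARHGAP11A (chr15:32907345-32932142, plus strand), which codes for a GTPase-activating protein of RhoA, fell least. It had 25.6, 25.1, 22.8 and 22.1 CPM with DMSO and 3.59, 3.09, 4.05 and 3.36 CPM with AMG900, a log2 fold change of -2.75 (SE 0.14, adjusted p = 1.65e-09, edgeR). Its near copy ARHGAP11B, to which reads of the pair could have been assigned, was too low to be tested in A549 (means of 1.26 and 0.252 CPM), so the count of ARHGAP11A is uncertain to that extent.

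The ring and midbody scaffolds fell as well. ANLN (chr7:36429430-36493400, plus strand), which ties RhoA, actin, myosin and septins together in the ring, had 62.3, 47.9, 41.8 and 42.0 CPM with DMSO and 2.46, 2.46, 4.69 and 1.62 CPM with AMG900. Its log2 fold change was -4.05 (SE 0.24, adjusted p = 6.31e-09, edgeR). The kinase gene CIT (chr12:120123596-120315124, minus strand) had 45.1, 72.0, 62.7 and 56.7 CPM with DMSO and 7.09, 7.44, 7.55 and 7.63 CPM with AMG900. Its log2 fold change was -3.00 (SE 0.14, adjusted p = 3.75e-10, edgeR), and the AMG900 libraries were nearly equal. CEP55 (chr10:95256369-95288849, plus strand), the midbody protein that recruits ESCRT factors, had 41.4, 24.2, 18.2 and 18.8 CPM with DMSO and 2.55, 2.04, 2.27 and 2.46 CPM with AMG900. Again DMSO replicate 1 was the highest, as in ECT2 and ANLN and, by a smaller margin, in PRC1 and ARHGAP11A. It was not the highest in RACGAP1, CIT or SHCBP1. The log2 fold change of CEP55 was -3.41 (SE 0.26, adjusted p = 9.69e-08, edgeR). SHCBP1 (chr16:46612503-46655291, minus strand), a midbody protein that binds centralspindlin, had 36.2, 35.0, 38.3 and 31.0 CPM with DMSO and 1.98, 1.68, 1.51 and 2.91 CPM with AMG900 (log2 fold change -4.12, SE 0.18, adjusted p = 2.4e-10, edgeR). Its decrease and that of ANLN were within their standard errors of each other, and their order turned without A549 AMG900 replicate 3 (ANLN -4.47, SHCBP1 -3.98) and without A549 DMSO replicate 3 (-4.12 and -4.07).

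In H1792 cells the same genes responded less uniformly. ANLN, ECT2, RACGAP1, CEP55 and SHCBP1 were lower with AMG900, at 29.5% to 61.1% of the DMSO mean, and PRC1, CIT and ARHGAP11A did not pass the test. The 5 called genes compare with 18.8% of the 15017 genes tested that were lower, and 0 of the 8 genes were higher, where 16.2% of all genes were (edgeR quasi-likelihood test; the count was also 0 at an unadjusted p under 0.05 and with DESeq2). Decreases of at least 2-fold were called in 2 of the 8 genes, ANLN and ECT2, and in 5.2% of all genes. In 6 of the 8 genes every AMG900 library lay below every DMSO library, as in 29.6% of all genes tested, and in PRC1 every one lay above, as in 30.1%. The median log2 fold change was -0.75, against 0.01 for all genes tested. The sum over the 8 genes was 263 to 329 CPM on the same scale with DMSO and 251 to 253 with AMG900, and PRC1 contributed the most to it. Among the 12625 genes tested in both lines, 9.31% were lower in both, as these 5 were, and 8.32% were lower in A549 and not called in H1792, as the other 3 were.

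ECT2 fell the most in H1792. It had 3.16, 4.10 and 3.67 CPM with DMSO and 1.35, 0.839 and 1.04 CPM with AMG900, a log2 fold change of -1.74 (SE 0.21, adjusted p = 8.02e-05, edgeR). Its DMSO libraries lay close together, unlike in A549, and the groups did not overlap in either line. RACGAP1 had 18.2, 21.8 and 20.0 CPM with DMSO and 11.9, 11.8 and 12.9 CPM with AMG900, with a log2 fold change of -0.71 (SE 0.09, adjusted p = 0.000116, edgeR). ANLN had 27.2, 36.5 and 34.6 CPM with DMSO and 12.3, 12.5 and 15.6 CPM with AMG900, a log2 fold change of -1.28 (SE 0.13, adjusted p = 2.69e-05, edgeR). The anillin libraries were well separated, at 41.1% of the DMSO mean. CEP55 had 15.7, 18.7 and 18.2 CPM with DMSO and 8.03, 8.90 and 9.46 CPM with AMG900, a log2 fold change of -0.99 (SE 0.10, adjusted p = 3.23e-05, edgeR). SHCBP1, at 14.98, 11.31 and 11.28 CPM with DMSO and 7.305, 7.387 and 7.004 CPM with AMG900, had a log2 fold change of -0.80 (SE 0.12, adjusted p = 0.000377, edgeR). Neither gene had overlapping groups, but SHCBP1 lost its call when counts were corrected for GC content (log2 fold change -0.41, adjusted p = 0.0379, edgeR).

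The 3 genes that were not called in H1792 differed in their values. PRC1 had 117, 137 and 133 CPM with DMSO and 139, 140 and 143 CPM with AMG900. All 3 AMG900 libraries lay above the DMSO libraries, by a small margin. The log2 fold change was 0.13 with a 95% confidence interval from -0.02 to 0.27 (adjusted p = 0.127, edgeR). CIT had 40.2, 51.1 and 44.1 CPM with DMSO and 52.7, 48.7 and 46.7 CPM with AMG900, groups that overlapped. Its interval ran from -0.06 to 0.33 around 0.13 (adjusted p = 0.239, edgeR). ARHGAP11A had 27.6, 34.6 and 34.5 CPM with DMSO and 26.0, 26.9 and 21.6 CPM with AMG900. Its groups were separate, and its log2 fold change of -0.37 missed the threshold of 0.01 (95% confidence interval -0.62 to -0.13, adjusted p = 0.0154, edgeR). Without H1792 DMSO replicate 1, the lowest of its DMSO libraries, ARHGAP11A was called lower (-0.50, adjusted p = 0.000109, edgeR), and DESeq2 also called it (adjusted p = 0.0026). With the correction for GC content its log2 fold change was 0.00 (adjusted p = 0.985, edgeR).

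The transcripts of these genes differ in GC content, from 36.3% in ECT2 to 51.6% in CIT. In H1792, CIT and PRC1 (46.8%), with the highest GC content, had log2 fold changes above 0, and ECT2 had the lowest value. ANLN and ARHGAP11A, both at 39.8%, differed in H1792, at -1.28 and -0.37, and RACGAP1 (44.8%) was close to SHCBP1 (39.3%), at -0.71 and -0.80. No relation with GC content was tested over the 8 genes. A spline correction for GC content left all 8 genes lower in A549, with log2 fold changes from -3.65 in SHCBP1 to -2.31 in ARHGAP11A. In H1792 it left 4 genes lower, ECT2 (-1.13), ANLN (-0.91), CEP55 (-0.72) and RACGAP1 (-0.58). Of all genes tested with this correction, 2340 of 12788 were lower in A549 and 3257 of 14373 in H1792. The median of the 8 genes moved from -3.27 to -3.06 in A549 and from -0.75 to -0.49 in H1792.

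**Figure D2:**
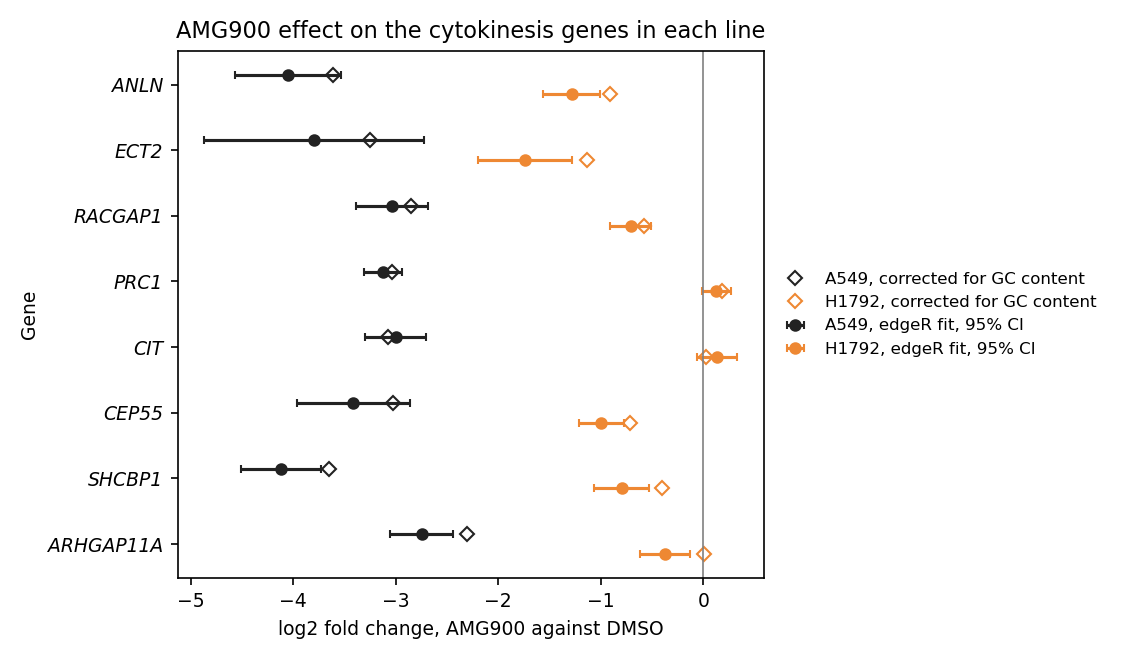
Log2 fold change of each cytokinesis gene, AMG900 against DMSO, in A549 (black) and H1792 (orange), with filled circles and 95% confidence intervals from the edgeR fit and open diamonds for the GC-corrected value. The A549 values lie between -4.12 and -2.75 and the H1792 values between -1.74 and 0.13, and the corrected values are closer to 0 in most genes.

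Whether the lines differed in their response was tested by an interaction term in a joint fit of the 14 libraries. For 7 of the 8 genes the log2 fold change was less negative in H1792 than in A549, where 5.37% of the 14769 genes tested differed in that direction, and 9.17% in the other, in which 0 of the 8 genes were called (0 also by DESeq2 and at an unadjusted p under 0.05). The differences (H1792 minus A549) were 3.25 for SHCBP1 (SE 0.24, adjusted p = 4.17e-09), 3.17 for PRC1 (SE 0.10, adjusted p = 3.05e-13), 3.06 for CIT (SE 0.18, adjusted p = 1.39e-10) and 2.68 for ANLN (SE 0.29, adjusted p = 1.25e-06) by the edgeR quasi-likelihood test. They were 2.33 for CEP55, 2.29 for ARHGAP11A and 2.26 for RACGAP1, with adjusted p-values of 1.24e-05, 9.81e-09 and 6.46e-08 by edgeR. ECT2, whose A549 libraries spread widely, missed the threshold with a difference of 1.96 (95% confidence interval 0.68 to 3.25, adjusted p = 0.0252, edgeR). Of 23 alternatives, 5 called it, among them the fit without A549 DMSO replicate 4 (2.26, adjusted p = 0.00573, edgeR) and DESeq2 (adjusted p = 0.00438). The other 18 did not, with an adjusted p of up to 0.0729 (without H1792 AMG900 replicate 1, edgeR). The median difference of the 8 genes was 2.51, against -0.10 for all genes tested. The correction for GC content left this median at 2.52. Over all genes, 793 differences were called in this direction and 1355 in the other, and 1012 and 1033 with the size factors of DESeq2, a change of scaling that left 7 of these genes called.

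Levels in the DMSO libraries, also collected at 48 h, were set side by side in the same joint fit. RACGAP1 and SHCBP1 were lower in H1792 than in A549, at 35.2% and 38.2% of the A549 mean, and ARHGAP11A was higher. RACGAP1 was at 52.5 to 67.3 CPM in A549 and 18.6 to 22.3 CPM in H1792 (log2 difference -1.51, SE 0.14, adjusted p = 6.11e-09, edgeR). SHCBP1 was at 30.1 to 36.9 CPM in A549 and 11.6 to 15.4 CPM in H1792 (-1.38, SE 0.15, adjusted p = 7.11e-08, edgeR). ARHGAP11A was at 21.4 to 24.2 CPM in A549 and 28.3 to 35.4 CPM in H1792 (0.54, SE 0.11, adjusted p = 0.000282, edgeR). ECT2 was called lower in H1792 (-1.17, adjusted p = 0.00795, edgeR) although its groups overlapped. This call was lost in 10 of the 14 fits that each left out 1 library, and without A549 DMSO replicate 1 the difference was -0.72 (adjusted p = 0.0325, edgeR). In all, 3 genes were lower and 1 higher, where 31.9% and 34.2% of all genes tested were. The groups were apart in ANLN, RACGAP1 and SHCBP1, with H1792 lower, as in 32% of all genes, and in ARHGAP11A, with H1792 higher, as in 36.3%. The other 4 genes had differences from -0.44 (ANLN) to -0.17 (PRC1), none of which was called. Scaling by total counts moved the median of all genes from 0.04 to -0.07 and added PRC1 (-0.28) and CIT (-0.41) to the lower genes.

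Per kilobase of transcript, on the same joint scale, PRC1 had by far the highest DMSO level in both lines, 48.4 ± 2.44 CPM per kb in A549 (SD, n = 4) and 42.9 ± 3.49 in H1792 (SD, n = 3). In A549 it was followed by RACGAP1 (18.7 ± 2.07), ANLN (9.78 ± 1.82), CEP55 (9.18 ± 3.77), SHCBP1 (6.49 ± 0.540), CIT (6.47 ± 1.23), ARHGAP11A (3.89 ± 0.226) and ECT2 (2.21 ± 1.57). The ranges of ANLN, CEP55, SHCBP1 and CIT overlapped from one to the next, as did those of ARHGAP11A and ECT2. In H1792 the order after PRC1 was ANLN (7.10 ± 1.06), CEP55, RACGAP1, ARHGAP11A, CIT (5.29 ± 0.641), SHCBP1 (2.48 ± 0.425) and ECT2 (0.903 ± 0.115). The 5 genes from ANLN to CIT overlapped with their neighbours. With AMG900 the level of PRC1 per kb was 5.87 ± 0.283 in A549 (SD, n = 4) and 47.0 ± 0.713 in H1792 (SD, n = 3), and ECT2 was the lowest in both lines, at 0.159 ± 0.0390 and 0.267 ± 0.0637 CPM per kb.

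Ratios of counts within a library do not depend on how libraries are scaled. They are given as values, with no test. The ratio of ANLN to CIT was lower with AMG900 in both lines with no overlap between the groups. In A549 it was 0.665 to 1.38 with DMSO and 0.212 to 0.621 with AMG900, and in H1792 0.677 to 0.785 and 0.234 to 0.334. ANLN has a GC content of 39.8% and CIT of 51.6%, and the part of GC content in this ratio was not tested. Within centralspindlin, the ratio of RACGAP1 to its kinesin partner KIF23 was 0.671 to 0.848 with DMSO and 0.522 to 0.681 with AMG900 in A549, where the groups overlapped. In H1792 it was lower with AMG900, at 0.227 to 0.235 against 0.365 to 0.422 with DMSO. The ratio of ECT2 to RACGAP1 in H1792 was 0.174 to 0.188 with DMSO and 0.0709 to 0.113 with AMG900, and its A549 groups overlapped. SHCBP1 against RACGAP1 was 0.492 to 0.667 with DMSO and 0.189 to 0.479 with AMG900 in A549, without overlap, and its H1792 groups overlapped. The ratio of PRC1 to KIF4A, the kinesin that PRC1 brings to the midzone, overlapped in A549 and was higher with AMG900 in H1792, at 2.97 to 3.16 against 2.29 to 2.75. ARHGAP11A against its near copy ARHGAP11B overlapped in A549 and was lower in H1792, at 19.0 to 21.5 against 23.8 to 34.4.

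**Figure D3:**
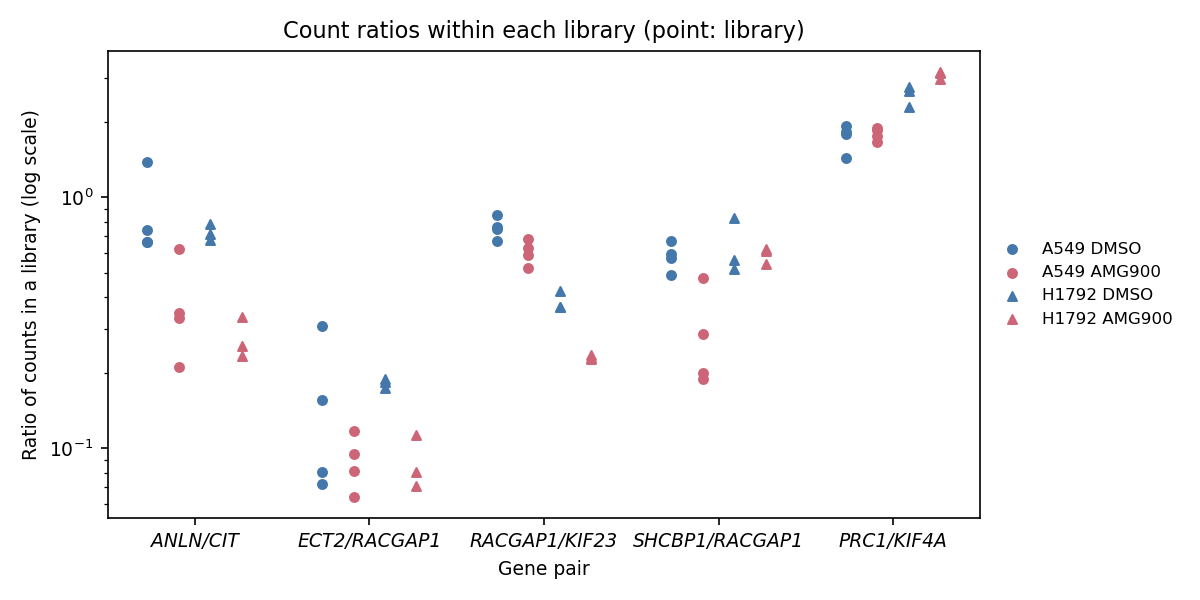
Ratio of the counts of a gene pair within each library on a log axis, with circles for A549, triangles for H1792, DMSO in blue and AMG900 in red. ANLN/CIT is lower with AMG900 in both lines, and RACGAP1/KIF23 stands apart from DMSO in H1792 at 0.227 to 0.235.

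Other genes of cytokinesis were followed in lists grouped by step, and their counts are read beside the shares of all genes tested, 17.8% lower and 17.2% higher in A549 and 18.8% lower and 16.2% higher in H1792. The midzone motors and the chromosomal passenger complex come first. In A549, 10 of the 10 tested were lower, with a median log2 fold change of -3.13, and KIF4B was too low to be tested. In H1792 3 of 11 were lower and 2 were higher, with a median of -0.03, and the count of higher genes was near the share of all genes. The motor KIF14 had the largest A549 change of this list (-3.51, and -0.42 in H1792, adjusted p = 1e-08 and 0.00589, edgeR) and INCENP, the scaffold of the passenger complex, the smallest (-2.07 and 0.10, adjusted p = 3.58e-08 and 0.189, edgeR). KIF23 had log2 fold changes of -2.72 in A549 and 0.02 in H1792 (adjusted p = 1.96e-10 and 0.906, edgeR), so that in H1792 the kinesin of centralspindlin was near its DMSO level while RACGAP1 was lower. KIF4A had -3.17 and -0.14 (adjusted p = 1.19e-10 and 0.0741, edgeR). The 2 higher genes in H1792 were the motor gene KIF20A (0.51, adjusted p = 0.00147, edgeR) and AURKB, which codes for Aurora B (0.24, adjusted p = 0.00838, edgeR); both were named after their values were seen.

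For RhoA and the contractile ring genes the counts of higher genes were near the shares of all genes tested (17.2% in A549, 16.2% in H1792), and lower genes (17.8% and 18.8% of all) were more frequent in the list, a difference that was not tested. In A549, 9 of 25 tested genes were lower and 4 higher, with a median log2 fold change of -0.02, and in H1792 7 of 21 were lower and 3 higher, with a median of -0.01. The 5 septins of this list were not matched in the H1792 table, where some symbols stand as calendar dates. The formin DIAPH3 had the largest A549 change (-3.81, adjusted p = 1.12e-06, edgeR) and was lower in H1792 also (-0.59, adjusted p = 0.00119, edgeR). ACTB, which codes for beta-actin, had the smallest A549 change (0.02, adjusted p = 0.813, edgeR) and was lower in H1792 (-0.27, adjusted p = 0.000486, edgeR). RHOA itself, named after its values were seen, had log2 fold changes of -0.94 and -0.84 (adjusted p = 9.97e-07 and 9.44e-06, edgeR), and the interaction test did not call their difference (0.02, SE 0.12, adjusted p = 0.926, edgeR).

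The ESCRT genes of abscission, which act after CEP55, had medians near 0, and most of them were called in neither direction. In A549 1 of 22 was lower and 5 were higher (median 0.10), where 17.8% and 17.2% of all genes were, and in H1792 5 were lower and 2 higher (median -0.09), where 18.8% and 16.2% of all genes were. PDCD6IP, which codes for ALIX and is bound by CEP55, had log2 fold changes of 0.02 in A549 (adjusted p = 0.891, edgeR) and 0.64 in H1792 (adjusted p = 0.00196, edgeR). TSG101, the other ESCRT factor bound by CEP55, had 0.42 and 0.33 and was called in neither line (adjusted p = 0.0136 and 0.0258, edgeR). The microtubule-severing enzyme gene SPAST had the largest A549 value of the list (-0.82, adjusted p = 0.0253, edgeR) and was lower in H1792 (-1.41, adjusted p = 0.00015, edgeR). IST1 had the smallest in A549 (0.00, adjusted p = 0.991, edgeR) and was lower in H1792 (-0.29, adjusted p = 0.00294, edgeR).

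**Figure D4:**
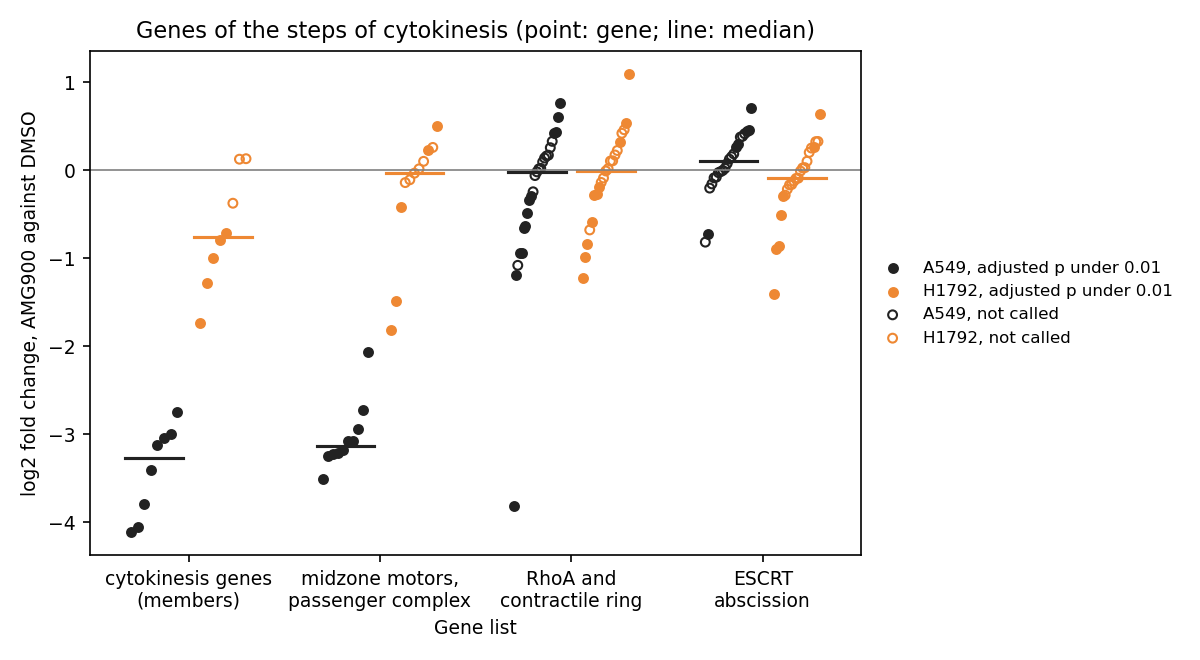
Log2 fold change, AMG900 against DMSO, of each tested gene of 4 lists in A549 (black) and H1792 (orange), with filled points at an adjusted p under 0.01 and a line at each list's median. The cytokinesis genes and the midzone list have A549 medians of -3.27 and -3.13, and the contractile ring and ESCRT lists have medians of -0.02 and 0.10.

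Marker genes of the cycle phases were followed as well. Of all genes tested, 17.8% were lower in A549, and 18.8% were lower and 16.2% higher in H1792. Of the G2/M marker genes other than the 8, 48 of 49 were lower in A549 (median log2 fold change -2.79). In H1792 9 of 50 were lower and 7 higher (median -0.05), near the shares of all genes. Of the S phase markers, 41 of 42 were lower in A549 (median -2.30), and in H1792 27 of 43 were lower and 1 higher (median -0.55).

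Genes with the response most like the mean of the 8 were sought by the root mean square distance of log2 CPM, each centred on its line's DMSO mean, over the 14 libraries and 8502 genes. The 5 closest were CLSPN (0.142), KIAA0101 (0.167), BUB1B (0.193), KIF11 (0.207) and GINS2 (0.221). Their log2 fold changes were between -3.71 and -3.34 in A549 and between -0.63 and -0.56 in H1792. CLSPN codes for claspin of the replication checkpoint, KIAA0101 for a PCNA-binding factor and GINS2 for a subunit of the replicative helicase, and BUB1B and KIF11 act in mitosis. The same 5 genes were the closest without A549 DMSO replicate 1.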

How the data were processed

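RNA-seq counts of 14 libraries were used. The authors deposited raw counts, the whole number of reads on each gene symbol, in 1 table per line. The submitters' processing notes name STAR, HTSeq, hg19 and GRCh37, and versions, annotation and strand setting are not given in the sources used here. DESeq2 was the study's tool. The 28 rows of the H1792 table that bear dates were left out.

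Counts were analysed in R 4.3.3 with edgeR 4.0.16 (filterByExpr, TMM, quasi-likelihood test, Benjamini-Hochberg adjustment over all genes tested, FDR 0.01). AMG900 was compared with DMSO within each line, and the line-by-treatment interaction and the DMSO difference were tested in a joint fit. Standard errors were taken from the log2 fold change and the F statistic. CPM used TMM-scaled totals. The biological coefficient of variation was 12.8% in A549 and 9.6% in H1792. Replicates of a group differed by more than counting noise. Same-numbered libraries correlated between -0.0604 and 0.0425 after group means were removed, so the numbers did not pair them.

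Positions, GC content and length came from GENCODE on GRCh37 (of 26760 symbols, 22367 matched a current and 1250 an older symbol, 344 several and 2799 none), and promoters from RefSeq on GRCh38.p14. Named genes were the 8, the partners KIF23, KIF4A, ARHGAP11B, PDCD6IP and TSG101, the largest and smallest A549 change in each of the 3 lists, and the 5 genes most like the 8 among those with a mean of at least 100 counts over the libraries of each line. The genes and lists were chosen with earlier results of these data known. The steps were run on simulated counts with the same spread set for every gene and line, unlike these data. The outcome is not given here.

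Alternatives were DESeq2 1.42.0, its size factors, total-count scaling, a replicate block, no filter, a minimum of 10 counts per library, a GC correction (spline with 5 degrees of freedom), the same with length, FDR 0.05, a 2-fold minimum, a shared fit and each library left out.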

Additional observations from a re-analysis of the deposited data

Results flagged for a closer look

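For 7 of the 8 cytokinesis genes the effect of AMG900 differed between the lines by the interaction test (edgeR quasi-likelihood test, Benjamini-Hochberg adjustment over all genes tested). The log2 fold change in H1792 was less negative than in A549 by 2.68 for ANLN (adjusted p = 1.25e-06), 2.26 for RACGAP1 (6.46e-08), 3.17 for PRC1 (3.05e-13), 3.06 for CIT (1.39e-10), 2.33 for CEP55 (1.24e-05), 3.25 for SHCBP1 (4.17e-09) and 2.29 for ARHGAP11A (9.81e-09). These 7 calls were also made under each alternative that was run. The lines differ in medium, depth and count table, which cannot be told apart from the line.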

How the results depend on the processing

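In A549, all 8 genes were lower under every alternative in which they were tested. Of 669 values of single genes under the alternatives, 632 kept their direction and side of the threshold. Part of this count was fixed in advance, as the FDR of 0.05 and the 2-fold minimum reuse the main fit. No direction could change there, and no call could be lost at an FDR of 0.05. Correction for GC content moved the median of the 8 genes to -3.06 in A549 and -0.49 in H1792, with length added to -3.04 and -0.47, and with the replicate block added to -3.05 and -0.48. ARHGAP11A in H1792 turned from -0.37 to 0.0023 with the GC correction and to 0.056 with GC and length, where PRC1 was called higher (1 gene, 0.19). Of all genes, 2151 of 14373 tested were higher in H1792 with GC and length. A 2-fold minimum left 2 lower genes in H1792, where 5.2% of all genes were lower by that rule. The replicate block alone left 8, 5 and 7 calls in A549, H1792 and the interaction. With that block, 1984 of 13174 genes were lower in A549 and 2618 of 15017 in H1792. In the interaction, 604 of 14769 were called in the direction of the 7. The interaction median was 2.68 with at least 10 counts in every library, where ECT2 was not tested, and 2.40 to 2.72 with 1 library left out, the highest without A549 AMG900 replicate 3. In the DMSO comparison, 5 genes were lower with total-count scaling, where 5167 of all 14769 genes tested were, against 4712 in the main fit. At an FDR of 0.05, 6 genes were lower, and the share of all genes at that threshold is not given here. ECT2 lost its DMSO call in 10 leave-one-out fits (-1.26 to -0.72). Without H1792 DMSO replicate 1, 6 genes were lower in H1792 with AMG900. Of all genes, 3656 of 15180 tested were lower in that fit, against 2827 of 15017 in the main fit. The causes were not tested, other than where fewer genes or samples entered. Depth limits ECT2 most, with 8 to 11 reads in A549 AMG900 libraries.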
